A study of Mus musculus with 12 samples.

Results

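The genes described here are 9 members of the glucocorticoid and metallothionein response in mouse liver, taken by their symbols from the gene rows of the deposited tables: Mt1, Mt2, Fkbp5, Tsc22d3, Tat, Sgk1, Zbtb16, Nr3c1 and Hsd11b1. All 9 were found among 50559 gene rows, and all 9 had enough reads to be tested in each comparison. Liver RNA of C57BL/6N mice was sequenced in 12 libraries, 3 biological replicates in each of 4 groups. The NCD group ate normal chow and the HFD group a high-fat diet, with fat supplying 60% of its energy, both for 12 weeks. The HFD+C1 and HFD+C2 groups are HFD mice injected into the peritoneum with the compound C1 or C2, respectively, each at a daily dose of 5 mg/kg over 12 weeks, so that all 3 HFD groups share the diet. The series title calls both compounds CYP4A inhibitors, enzymes that hydroxylate fatty acids. The labels say nothing of sex, age, vehicle injections in the NCD and HFD groups, or the time of day at which tissue was taken.

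Glucocorticoids bind the receptor encoded by Nr3c1, which is held ready by chaperones in the cytoplasm, moves to the nucleus and binds DNA at glucocorticoid response elements, raising or lowering the transcription of target genes. In liver the hormone drives amino acid breakdown and glucose production, and the enzyme encoded by Hsd11b1 regenerates active hormone inside hepatocytes. Metallothioneins are small cysteine-rich proteins that bind zinc, copper and cadmium, and their genes respond to metals through the factor MTF1 at metal response elements as well as to glucocorticoids and to inflammation.

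The promoters of the metallothionein genes and 1 promoter of Sgk1 are shown because they hold several metal response element cores or a glucocorticoid response element. The sequences come from RefSeq on GRCm38.p6 and run from 250 bases before to 50 bases after a transcription start, and 7 of the 9 genes had at least 1 entry. Capitals mark the core of the metal response element, TGCACNC or TGCGCNC on either strand, in Mt1 (chr8:94178839-94179138, plus strand) and Mt2 (chr8:94172368-94172667, plus strand), and the palindromic glucocorticoid response element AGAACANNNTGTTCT in Sgk1 (chr10:21993640-21993939, plus strand).
Mt1: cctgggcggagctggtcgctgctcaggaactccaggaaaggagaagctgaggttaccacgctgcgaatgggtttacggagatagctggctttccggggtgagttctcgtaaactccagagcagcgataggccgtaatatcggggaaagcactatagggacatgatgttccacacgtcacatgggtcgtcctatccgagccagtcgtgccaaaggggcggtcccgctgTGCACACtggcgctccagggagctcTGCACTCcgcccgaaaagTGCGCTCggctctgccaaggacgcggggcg
Mt2: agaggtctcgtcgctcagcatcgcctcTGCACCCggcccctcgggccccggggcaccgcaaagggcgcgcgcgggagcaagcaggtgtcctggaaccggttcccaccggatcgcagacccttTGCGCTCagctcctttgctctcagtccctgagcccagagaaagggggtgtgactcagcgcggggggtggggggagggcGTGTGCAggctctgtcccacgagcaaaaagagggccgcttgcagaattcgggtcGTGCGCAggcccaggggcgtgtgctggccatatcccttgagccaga
Sgk1: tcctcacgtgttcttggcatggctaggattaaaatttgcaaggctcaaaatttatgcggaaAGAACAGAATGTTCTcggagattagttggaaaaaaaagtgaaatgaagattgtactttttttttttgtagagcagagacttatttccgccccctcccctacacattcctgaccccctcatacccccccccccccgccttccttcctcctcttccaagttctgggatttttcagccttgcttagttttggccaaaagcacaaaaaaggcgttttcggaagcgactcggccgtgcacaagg
The Mt1 window held 3 metal response element cores and the Mt2 window 4. At least 3 cores were present in 1.97% of 32851 promoter windows of the same length, and at least 4 in 0.517%. The palindrome was found in 3 of 32851 windows (0.00913%), of which the Sgk1 window shown is 1. The shorter AGAACA, which is part of the palindrome, occurred in 19.0% of windows, and its matches among the 9 genes lay in windows of Tsc22d3 and Sgk1. The E-box CACGTG, found in 7.15% of windows, occurred in the windows of Fkbp5 and of Sgk1 shown above. Single metal response element cores were also present in another Sgk1 window and in the Hsd11b1 window, and 25.7% of all windows held at least 1. These matches describe letters, and no binding was measured.

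The genes lie at separate places of the mouse genome except for the metallothioneins, which are neighbours on chromosome 8. In GENCODE M21 on GRCm38, Mt1 spans chr8:94179082-94180327 and Mt2 chr8:94172664-94173568, both on the plus strand. They shared 0 stretches of 30 identical exon bases, so that reads of either gene can be told apart at that length. The antisense gene Gm45774 overlaps 73.5% of the exon bases of Mt2, is not a row of the tables, and its reads could have been counted as Mt2 where strand was not used. The others are Tat at chr8:109990437-109999803 and Sgk1 at chr10:21882184-21999903 on the plus strand, and Fkbp5 at chr17:28399094-28517527, Tsc22d3 at chrX:140539528-140600659, Zbtb16 at chr9:48654297-48836222, Nr3c1 at chr18:39410545-39519421 and Hsd11b1 at chr1:193221634-193264075 on the minus strand.

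Depth and library quality differed between the samples. Gene-assigned reads numbered 4281210 in the shallowest library, NCD replicate 2, and 32124248 in the deepest, HFD replicate 1. NCD replicate 1 had 58.2% of its reads outside genes and HFD+C2 replicate 1 had 47.1%, while the remaining 10 libraries had 27.3% to 40.7%. These libraries also had the lowest correlation across genes with their own group (0.927 and 0.945 for NCD replicate 1, 0.969 and 0.968 for HFD+C2 replicate 1). The 8 hepatocyte markers examined were detected, as the liver label requires. Their summed level was 34914 CPM in NCD replicate 1, 82866 and 87833 CPM in the other NCD libraries, 100382 to 120193 CPM in HFD, 115043 to 126235 CPM in HFD+C1 and 93979 to 165316 CPM in HFD+C2. CPM here are counts per 1000000 reads in genes, scaled over the 12 libraries by trimmed mean of M values (TMM), and levels are compared between libraries, not between genes of different length. In bulk tissue a change in the number of cells of a type and a change in RNA per cell cannot be told apart.

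The first question was how the high-fat diet alone related to the 9 genes. In HFD livers Mt1, a metallothionein, was 3.25-fold its NCD level, and Zbtb16, a zinc-finger transcription factor induced by glucocorticoids in many cell types, was at 0.416 times its NCD level. These were the only members called at an adjusted p under 0.05 by edgeR's quasi-likelihood test, 2 of 9 beside 6.14% of all 13864 genes tested (2.65% higher in HFD and 3.48% lower). The remaining 7 did not pass. Without adjustment 7 of 9 had a p under 0.05, beside 28.8% of all genes. For 7 of the 9, 3 higher and 4 lower in HFD, the libraries of both diets were fully apart, while 37.1% of all genes tested had groups that did not overlap (18.4% higher, 18.7% lower).

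Mt1 stood at 8.33, 5.27 and 5.71 CPM in NCD replicates 1 to 3 and at 29.4, 10.4 and 22.8 CPM in HFD replicates 1 to 3. Every HFD library was above every NCD library, and HFD replicate 2 lay nearest to them. This amounted to a log2 fold change of 1.70 (SE 0.38, n = 3 against 3, edgeR adjusted p = 0.0441). Mt2, its neighbour, was at 0.425, 0.633 and 0.904 CPM in NCD and at 2.86, 1.10 and 2.12 CPM in HFD. The groups were again apart, but few reads stood behind the NCD values: 5, 3 and 22, the count of 3 being the lowest taken here as measurable. For Mt2 the log2 fold change of 1.60 (SE 0.55) did not pass (edgeR adjusted p = 0.107). The call on Mt1 was lost without NCD replicate 2 (adjusted p = 0.0589), NCD replicate 3 (0.0906), HFD replicate 1 (0.209) or HFD replicate 3 (0.168), with log2 fold changes from 1.38 to 2.03 over all 6 omissions, and under limma-voom (adjusted p = 0.0630), without TMM (0.0506), with genes of a mean of at least 50 counts (also 0.0506) and in an edgeR fit of all 12 libraries together (0.148).

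Unlike the metallothioneins, which also respond to the hormone, Zbtb16, Tsc22d3, Tat, Sgk1 and Fkbp5 had lower means in HFD than in NCD, and only Zbtb16 passed the test. It was at 6.89, 8.86 and 8.83 CPM in NCD and at 2.63, 4.43 and 3.01 CPM in HFD, with no overlap. It fell by 1.26 on the log2 scale (SE 0.28, edgeR adjusted p = 0.0418). The call was kept without NCD replicate 1 (adjusted p = 0.00335) and lost on leaving out any other of the 6 libraries (adjusted p = 0.0519 and 0.0743 without NCD replicates 2 and 3, and 0.210, 0.0844 and 0.173 without HFD replicates 1, 2 and 3), with log2 fold changes from -1.51 to -1.11. It was also lost in the fit of all 12 libraries (edgeR adjusted p = 0.0696) and with a replicate block (0.0520). Tsc22d3 encodes GILZ, a leucine zipper protein that carries part of the anti-inflammatory action of glucocorticoids. Its level was 87.3, 51.4 and 50.6 CPM in NCD and 31.5, 36.5 and 32.4 CPM in HFD, with NCD replicate 1 far above the rest. A log2 fold change of -0.90 (SE 0.24) did not pass (edgeR adjusted p = 0.0605), whereas DESeq2 called it (adjusted p = 0.00853).

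Tat encodes tyrosine aminotransferase, the liver enzyme that starts tyrosine breakdown and a textbook glucocorticoid target. It was at 744.0, 1050.0 and 923 CPM in NCD and at 492, 634 and 437 CPM in HFD, without overlap. The log2 fold change was -0.78 (SE 0.22, edgeR adjusted p = 0.0698), and DESeq2 called this gene too (adjusted p = 0.00365). Sgk1, a kinase that regulates ion channels and transporters, was at 10.7, 5.48 and 6.08 CPM in NCD and at 4.85, 3.19 and 3.71 CPM in HFD. Groups were apart by a small margin between NCD replicate 2 and HFD replicate 1, and NCD replicate 1 was the highest of the 12 libraries. Its log2 fold change was -0.92 (SE 0.32, edgeR adjusted p = 0.108). Fkbp5, a co-chaperone that lowers the receptor's affinity for hormone and is itself a receptor target, was at 6.89, 7.38 and 8.13 CPM in NCD and at 7.05, 6.56 and 4.81 CPM in HFD. HFD replicate 1 lay inside the NCD range, and the log2 fold change of -0.27 (95% interval -0.80 to 0.26) did not pass (SE 0.23, edgeR adjusted p = 0.466).

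The receptor gene and the hormone-activating enzyme were higher on average in HFD, without passing. Nr3c1 was at 24.7, 46.6 and 40.3 CPM in NCD and at 42.0, 58.7 and 47.4 CPM in HFD, with overlap. Its log2 fold change was 0.43 (SE 0.26, edgeR adjusted p = 0.293). Hsd11b1 was at 107, 305.1 and 307 CPM in NCD and at 445, 484 and 383 CPM in HFD, so that NCD replicate 1 stood far below the rest of its group. It gave a log2 fold change of 0.89 (SE 0.37, edgeR adjusted p = 0.157). NCD replicate 1, the library lowest in hepatocyte markers, was also the lowest of the 12 libraries for Nr3c1 and Hsd11b1 and the highest for Tsc22d3 and Sgk1. The part of hepatocyte content in these differences was not tested. Among markers of other cell types Col1a1, Col3a1, Lyve1 and Cfd were higher in HFD (log2 fold changes 2.59, 1.19, 2.21 and 5.40, each called by edgeR, Cfd after passing the filter on low counts through HFD alone), the only genes of the non-hepatocyte marker lists to be called. Summed levels in NCD and HFD, respectively, were 95.4 to 127 and 135 to 151 CPM for 8 stellate cell and fibroblast markers, 23.6 to 32.4 and 33.03 to 39.8 CPM for 6 cholangiocyte markers, and 0.843 to 1.28 and 20.02 to 24.5 CPM for 5 adipocyte markers, all higher in HFD without overlap. Single genes did not all follow their sums. Of the 4 cholangiocyte markers tested, 1 was higher and 3 were lower in HFD (median log2 fold change -0.43). Of the 8 stellate cell and fibroblast markers, 5 were higher and 3 lower. Cfd alone, at 0.473 ± 0.165 CPM in NCD and 21.8 ± 2.36 CPM in HFD (SD, n = 3), made up nearly all of the adipocyte sum in HFD. Summed levels of 7 B and plasma cell markers were lower without overlap (3.80 to 6.08 and 2.03 to 3.62 CPM). Those of 7 endothelial markers, Lyve1 among them, overlapped (70.1 to 93.4 and 77.3 to 104 CPM), as did the Kupffer cell, T and NK cell, neutrophil and pancreatic acinar sums. Their part was not tested either. Without NCD replicate 1, 5 of 9 members were called: Mt1, Tsc22d3, Tat, Zbtb16 and Hsd11b1 (log2 fold changes 1.91, -0.60, -0.92, -1.39 and 0.52). Calls over all genes also rose with that omission, from 851 of 13864 to 1838 of 13412 genes tested.

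**Figure D1:**
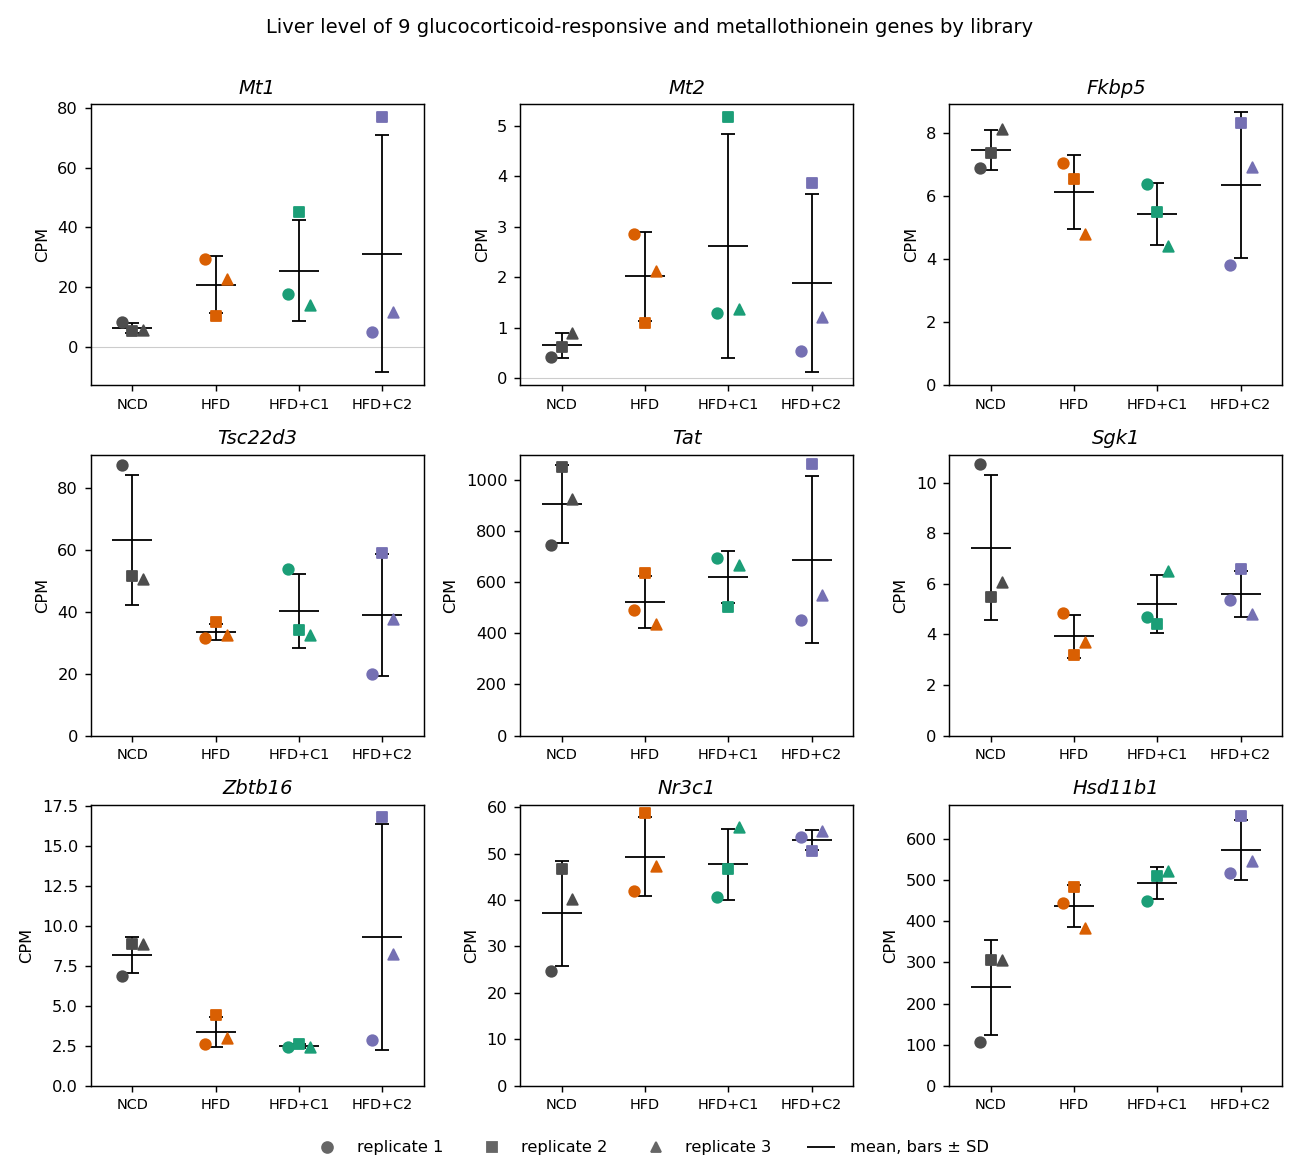
Level of each of the 9 genes in every library, in CPM on a linear axis (1 panel per gene; circle, square and triangle are replicates 1, 2 and 3; the horizontal dash is the group mean and the bars are ± 1 SD, n = 3). NCD and HFD do not overlap in 7 of 9 panels, Fkbp5 and Nr3c1 being the exceptions, and in HFD+C2 the square, replicate 2, is the highest value in 8 of 9 panels.

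The second question was whether C1 moved these genes in HFD livers. None of the 9 was called, in a comparison in which edgeR called 7 of 13358 genes (0.0524%). Without adjustment 0 members and 7.75% of all genes had a p under 0.05. DESeq2 called 77 of the 13358 genes and also 0 members. Zbtb16 was at 2.42, 2.61 and 2.45 CPM in HFD+C1, tightly grouped and below all 3 HFD libraries. The margin was small, with HFD replicate 1 at 2.63 CPM. In reads this was 57 of 22637737 in HFD+C1 replicate 2 and 79 of 32124248 in HFD replicate 1, so that without TMM the groups overlapped. With TMM Zbtb16 was the only member whose groups did not overlap, a pattern shared by 12.3% of all genes tested. The log2 fold change of -0.43 (95% interval -0.95 to 0.09) did not pass (edgeR adjusted p = 0.744). Mt1 was at 17.7, 45.0 and 13.9 CPM and Mt2 at 1.29, 5.17 and 1.38 CPM, in both cases with replicate 2 above every HFD library. The log2 fold changes were 0.29 (95% interval -0.56 to 1.14) for Mt1 and 0.36 (-0.68 to 1.41) for Mt2. Without HFD+C1 replicate 2 they were -0.40 and -0.61, and without HFD replicate 2 that of Mt1 was -0.04.

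The other 6 genes overlapped their HFD levels in HFD+C1. Tsc22d3 was at 53.9, 34.2 and 32.6 CPM, with replicate 1 above the HFD range. Tat was at 693, 504 and 665 CPM, and Sgk1 at 4.70, 4.39 and 6.49 CPM. Their log2 fold changes were 0.27 (95% interval -0.10 to 0.64), 0.25 (-0.09 to 0.59) and 0.40 (-0.08 to 0.87). Fkbp5 was at 6.40, 5.49 and 4.42 CPM, Nr3c1 at 40.6, 46.8 and 55.7 CPM and Hsd11b1 at 449, 509 and 523 CPM. Each of these ranges overlapped that of HFD, with log2 fold changes of -0.17 (-0.60 to 0.26), -0.05 (-0.37 to 0.27) and 0.17 (-0.09 to 0.44). Without HFD+C1 replicate 1 the log2 fold change was -0.0065 for Tsc22d3 and 0.049 for Nr3c1, and without HFD replicate 2 it was 0.088 for Nr3c1. Upper bounds of 0.64 and 0.87, for Tsc22d3 and Sgk1, still include moderate differences.

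The same question for C2 gave 0 of 9 members called, with 3 of 13503 genes called (0.0222%) by edgeR. DESeq2 called 35 of the 13503 genes and 0 members. Without adjustment 1 member and 6.89% of genes had a p under 0.05 in edgeR. That member was Zbtb16, at 2.85, 16.8 and 8.21 CPM in HFD+C2. Replicate 1 sat inside the HFD range and the others above it, replicate 2 at 16.8 CPM being the highest of all 12 libraries. The log2 fold change was 1.47 (95% interval 0.30 to 2.64, edgeR adjusted p = 0.695). Without HFD+C2 replicate 1, the library with 47.1% of its reads outside genes, it was 1.89 and passed (adjusted p = 0.0219), and without replicate 2 it was 0.72 (adjusted p = 0.670).

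Metallothioneins varied widely within HFD+C2. Mt1 was at 4.96, 76.8 and 11.7 CPM, so that this group held both the lowest and the highest of the 12 libraries, 15.5-fold apart. The log2 fold change was 0.58 (95% interval -1.24 to 2.40), and -1.33 without replicate 2. Mt2 was at 0.551, 3.88 and 1.22 CPM, with a log2 fold change of -0.09 (-1.45 to 1.27). For Mt2 this was -1.19 without replicate 2, and it turned above 0 without HFD+C2 replicate 1 (0.33), HFD replicate 1 (0.25) or HFD+C2 replicate 3 (0.16). The spread of Mt1, as the SD of log2(CPM + 1) within a group, was larger than that of 99.9% of 13466 genes in HFD+C2, of 99.7% in both HFD and HFD+C1, and of 43.1% in NCD. These shares are not on 1 scale, since genes spread more widely in NCD. There the SD of Mt1 was 0.307, while in HFD an SD of 0.303, that of Zbtb16, was larger than that of 89.3% of genes.

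Replicate 2 of HFD+C2 also held the highest value of Fkbp5 (3.80, 8.34 and 6.91 CPM in replicates 1 to 3), Tsc22d3 (19.7, 59.1 and 37.8 CPM) and Tat (452, 1062 and 550.5 CPM). Replicate 1 held the lowest value of these genes in its group, as it did for 7 of the 9 members. Over the 9 genes replicate 2 was highest for 8, with Nr3c1 as the exception. Of 13466 genes, 28.2% were highest in replicate 2 and 42.3% lowest in replicate 1 of this group; the members' counts were not tested against these shares. Log2 fold changes were 0.05 (95% interval -0.61 to 0.70) for Fkbp5, 0.21 (-0.52 to 0.94) for Tsc22d3 and 0.40 (-0.32 to 1.11) for Tat. All of these turned below 0 without replicate 2 (-0.20, -0.23 and -0.07), and for Fkbp5 the omission of replicate 3 of either HFD or HFD+C2 had that result too (-0.09 and -0.01). Sgk1 was steadier, at 5.36, 6.58 and 4.82 CPM (log2 fold change 0.50, -0.02 to 1.02, edgeR adjusted p = 0.695).

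The receptor gene had the narrowest interval of the 9 between HFD and HFD+C2. Nr3c1 was at 53.6, 50.6 and 54.8 CPM in HFD+C2 (log2 fold change 0.09, 95% interval -0.28 to 0.47). On leaving out each of the 6 libraries its log2 fold change ran from -0.010 to 0.24. Hsd11b1 was at 517, 655 and 546 CPM, above all 3 HFD libraries. With TMM it was the only member whose groups did not overlap, beside 13.6% of all genes tested. The separation rested on HFD+C2 replicate 1, which had the smallest TMM factor of the 12 libraries (0.864). Its 10331 of 23132853 reads in genes, beside 13665 of 28114283 in HFD replicate 2, put it inside the HFD range without TMM. The log2 fold change of Hsd11b1, 0.38 (-0.04 to 0.81), did not pass (edgeR adjusted p = 0.696). Each compound was compared with the same HFD libraries, so that the following counts are not independent. Of 9 Kupffer cell and macrophage markers, 9 had higher means in HFD+C1 (median log2 fold change 0.67, beside 0.01 over all genes) and 9 in HFD+C2 (0.59, beside 0.02). Their summed level was 146 to 191 CPM in HFD, 230.5 to 299 CPM in HFD+C1 and 179 to 331 CPM in HFD+C2, with none of the 9 at 0 throughout. None passed the test, and their part in the values of the members was not tested. Ighm, Igkc and Trac, defining genes of B, plasma and T cells, were at 0 in all libraries, as were the pancreatic acinar markers Prss2 and Amy2b. Other markers of these cell types were detected in every group. The zeros are therefore not read as absence of the cells, and their cause was not tested.

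**Figure D2:**
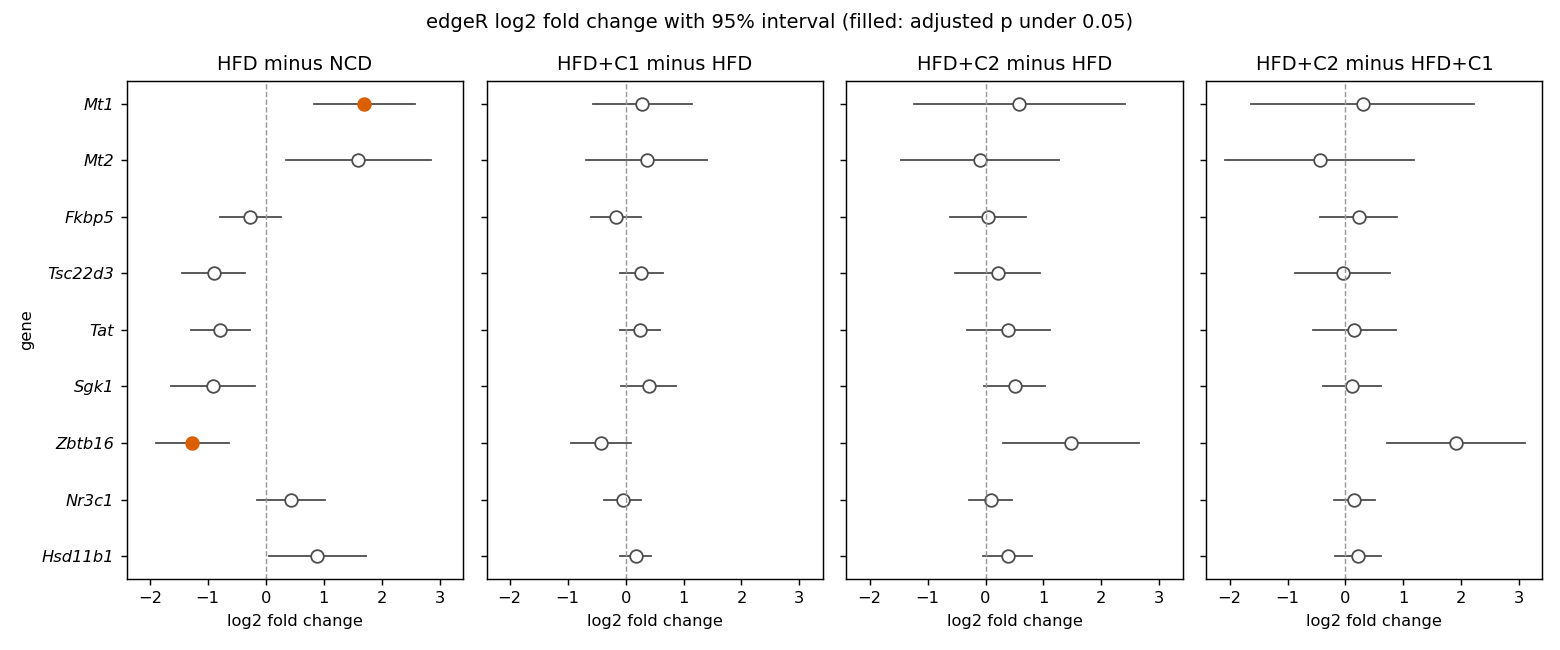
Log2 fold change (x axis) of each gene (y axis) from edgeR in the 4 comparisons, with 95% intervals, n = 3 against 3; filled circles have an adjusted p under 0.05. Only Mt1 and Zbtb16 in HFD minus NCD are filled, and the widest intervals are those of Mt1 and Mt2 in the panels with HFD+C2.

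C1 and C2 were given at the same dose for the same time, which allows a direct comparison over 9 genes with p-values adjusted over all genes. edgeR called 0 members and 0 of 13229 genes (0.00%), with 4.60% of genes and 1 member at an unadjusted p under 0.05, and DESeq2 called 3 genes and 0 members. Zbtb16 was again that member: its lowest HFD+C2 value, 2.85 CPM, was above its highest HFD+C1 value, 2.61 CPM. Each value rested on 57 reads, of 23132853 in HFD+C2 replicate 1 and 22637737 in HFD+C1 replicate 2, so that their order reversed without TMM. Of all genes tested, 12.0% had groups that did not overlap in this comparison, a share close to the 1 of 9 seen here. HFD+C2 was higher by 1.91 on the log2 scale (95% interval 0.72 to 3.10, edgeR adjusted p = 0.841). Without HFD+C2 replicate 1 the difference was 2.33 (adjusted p = 0.0454), and without replicate 2 it was 1.15 (adjusted p = 0.744). The groups of the other 8 overlapped. Their differences, HFD+C2 minus HFD+C1, ran from -0.44 for Mt2 (-2.07 to 1.18) to 0.30 for Mt1 (-1.63 to 2.23), which are intervals too wide to show that the compounds act alike on the metallothioneins. They were narrower for Nr3c1 (0.16, -0.20 to 0.51), Hsd11b1 (0.22, -0.18 to 0.62) and Sgk1 (0.11, -0.39 to 0.62), and intermediate for Fkbp5 (0.23, -0.43 to 0.89), Tat (0.15, -0.56 to 0.87) and Tsc22d3 (-0.05, -0.86 to 0.77). Most of these directions depended on single libraries. Without HFD+C2 replicate 2 Mt1 was at -1.61, Tat at -0.31, Fkbp5 at -0.021 and Sgk1 at -0.027, without HFD+C1 replicate 2 Mt2 was at 0.52, and Tsc22d3 was at 0.22 without HFD+C1 replicate 1 and 0.26 without HFD+C2 replicate 1. Mt1 was also below 0 under limma-voom (-0.40) and with a replicate block (-0.37).

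Ordered by group mean, few neighbouring groups were free of overlap. For Mt1 only the step from NCD (6.44 ± 1.66 CPM, SD, n = 3) to HFD (20.9 ± 9.66) was free of overlap, with HFD+C1 (25.5 ± 17.0) and HFD+C2 (31.2 ± 39.7) above and overlapping. For Mt2 all neighbours overlapped, from NCD (0.654 ± 0.240) through HFD+C2 (1.88 ± 1.76) and HFD (2.03 ± 0.884) to HFD+C1 (2.61 ± 2.21). Zbtb16 was lowest in HFD+C1 (2.49 ± 0.100), then came HFD (3.36 ± 0.950) and NCD (8.19 ± 1.13), each step without overlap. The step from HFD+C1 to HFD was smaller than the SD of HFD, and the nearest libraries were at 2.61 and 2.63 CPM. HFD+C2 (9.29 ± 7.03) overlapped NCD. Hsd11b1 had a step without overlap from NCD (239 ± 115) to HFD (437 ± 51.3), followed by overlapping HFD+C1 (494 ± 39.2) and HFD+C2 (573 ± 72.7). Tsc22d3, Tat and Sgk1 were lowest in HFD and highest in NCD with no separated neighbours in the order of means. Means of Fkbp5 lay between 5.44 ± 0.994 (HFD+C1) and 7.47 ± 0.627 CPM (NCD), and those of Nr3c1 between 37.2 ± 11.3 (NCD) and 53.0 ± 2.15 CPM (HFD+C2), also without separated neighbours.

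The ratio of Mt2 to Mt1 reads was compared within each library, where scaling plays no part, while over the 12 libraries the level of Mt1 spanned 15.5-fold and that of Mt2 12.2-fold. HFD libraries had 9.72, 10.6 and 9.30 Mt2 reads per 100 Mt1 reads, and HFD+C1 libraries 7.30, 11.5 and 9.96. NCD libraries had 5.10, 12.0 and 15.8 from 3 to 22 Mt2 reads each. In HFD+C2 the ratio was 11.1, 5.05 and 10.4, lowest in replicate 2, the library with the most Mt1. There Mt2 made up 4.80% of the reads of both genes (exact 95% binomial interval 3.92% to 5.82%, which covers counting error only). No comparison differed in mean log2 ratio by exact two-sided permutation test (p = 1.0 for HFD against NCD, 0.9 for each compound against HFD and 0.8 for HFD+C2 against HFD+C1), although 3 libraries against 3 cannot give a p below 0.1. Mt3 and Mt4, metallothioneins of brain and stratified epithelium, had 1 read in all, in NCD replicate 3.

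**Figure D3:**
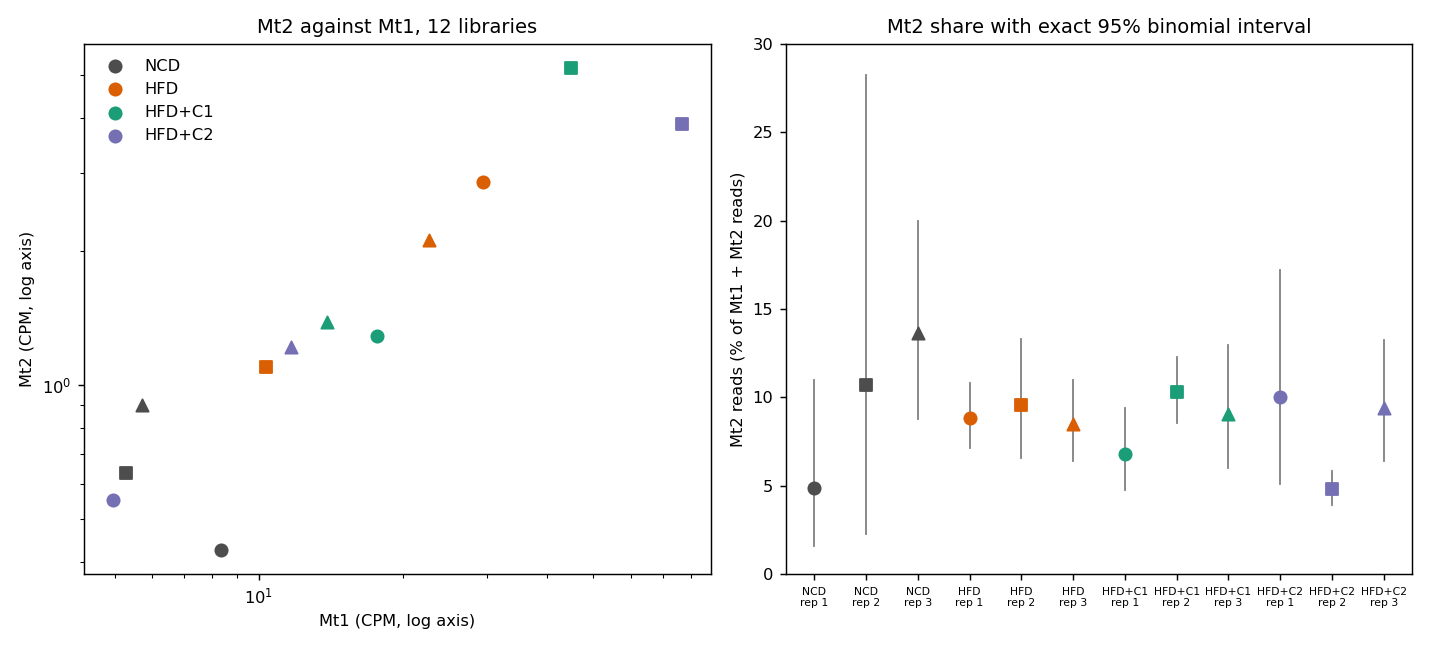
Left, Mt2 against Mt1 in CPM on log axes, 1 point per library, coloured by group with circle, square and triangle for replicates 1 to 3. Right, Mt2 as a percentage of Mt1 and Mt2 reads in each library with exact 95% binomial intervals, which cover counting error only and not the spread between mice. The lowest points are HFD+C2 replicate 2 at 4.80% and NCD replicate 1 at 4.85%.

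Across the 12 libraries the 9 genes gave 36 pairs, of which 6 had a Pearson correlation of log2(CPM + 1) with an adjusted p under 0.05 (permutation test, 100000 resamples, Benjamini-Hochberg over the 36). Mt1 with Mt2 was the closest pair (Pearson's r = 0.93, permutation p = 4e-05, adjusted p = 0.00144; Spearman's rho = 0.94, adjusted p = 0.0018). It was 0.91 without the 2 libraries farthest from the median of Mt1, and 0.90 for deviations from group means. Tsc22d3 with Tat had r = 0.73 (p = 0.0063, adjusted p = 0.0416), rho = 0.85 (p = 0.00091, adjusted p = 0.0164) by permutation, and r = 0.86 without the farthest 2. Fkbp5 with Zbtb16 had r = 0.73 (p = 0.00694, adjusted p = 0.0416), rho = 0.75 (p = 0.00736, adjusted p = 0.0769) by permutation, and r = 0.75 without the farthest 2. These are receptor targets of separate function, a leucine zipper protein, a catabolic enzyme, a co-chaperone and a transcription factor. For Tat with Zbtb16 the 12 libraries gave r = 0.76 (p = 0.00535, adjusted p = 0.0416), rho = 0.55 (p = 0.0667, adjusted p = 0.3) by permutation, and r = 0.55 without the farthest 2. Fkbp5 with Tsc22d3 had r = 0.72 (p = 0.00693, adjusted p = 0.0416), rho = 0.59 (p = 0.0449, adjusted p = 0.231) by permutation, and r = 0.51 without the farthest 2. Nr3c1 with Hsd11b1 had r = 0.88 (p = 0.00337, adjusted p = 0.0416), rho = 0.73 (p = 0.00855, adjusted p = 0.0769) by permutation, and r = 0.60 without the farthest 2. By rho, the adjusted p was under 0.05 for Mt1 with Mt2 and Tsc22d3 with Tat only among these 6.

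The last of these rested on few libraries: Nr3c1 with Hsd11b1 had r = 0.55 without NCD replicate 1 and HFD+C2 replicate 1, an omission chosen after the data were seen. With those libraries left out 2 of 36 pairs passed, Mt1 with Mt2 and Tsc22d3 with Tat, as also happened without the farthest 2. Deviations from group means, tested by exact permutation within groups, gave 0 of 36 pairs (Mt1 with Mt2 p = 0.0123, adjusted p = 0.250). The r of these deviations was 0.84 for Tat with Zbtb16, 0.82 for Nr3c1 with Hsd11b1, 0.79 for Fkbp5 with Zbtb16, 0.70 for Fkbp5 with Tsc22d3 and 0.57 for Tsc22d3 with Tat. By that permutation test the adjusted p was 0.313 for each of the first 2 pairs. Single groups weighed heavily in these r. The SD of log2(CPM + 1) of Hsd11b1 was 0.873 in NCD and at most 0.178 elsewhere. For Zbtb16 it was 1.11 in HFD+C2 and at most 0.303 elsewhere. The libraries of a group share diet and treatment, so that the correlations over 12 libraries mix differences between groups with those between mice.

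**Figure D4:**
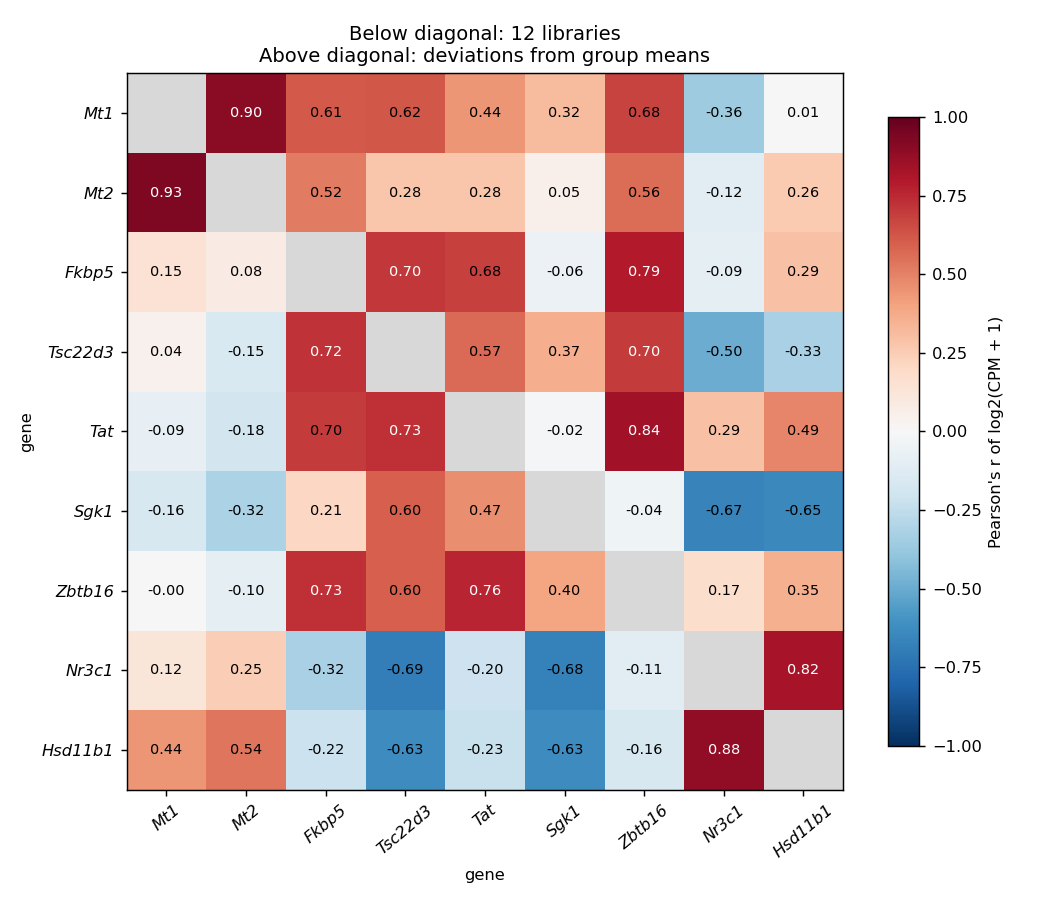
Pearson's r between log2(CPM + 1) values of each pair of the 9 genes: below the diagonal over 12 libraries, above it for deviations from the 4 group means; the colour runs from blue (-1) through white (0) to red (1). Mt1 and Mt2 are red on both sides (0.93 and 0.90), and so are Nr3c1 and Hsd11b1 (0.88 and 0.82). No pair above the diagonal passed its permutation test after adjustment, and Hsd11b1 deviated mostly in NCD.

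Outside the 9 genes, the closest patterns were sought by Pearson's r over the 12 libraries among 10125 genes averaging 50 counts or more. They are given as descriptions, since the points share depth and library quality. Nearest to Mt1 were Tpst2 (0.91), A2ml1 (0.88) and S1pr5 (0.87), and nearest to Mt2 A2ml1 (0.90), Zfp524 (0.86) and Tpst2 (0.85), so that both metallothioneins shared Tpst2 and A2ml1. Fkbp5 was nearest to Camkk2 (0.90), Trmt61b (0.87) and Foxp1 (0.85). Tsc22d3 was nearest to Atic (0.94), Zfp790 (0.93) and Cyb5r1 (0.93), and Tat to Sdc1 (0.96), Scarb2 (0.93) and Acmsd (0.91). Sgk1 was nearest to Crip1 (0.87), Rrp8 (0.87) and Tle4 (0.87), and Zbtb16 to Upp2 (0.88), Ppat (0.83) and Piga (0.82). Nr3c1 was nearest to Smurf2 (0.98), Ganc (0.96) and Cped1 (0.95). Hsd11b1 was nearest to Aldh8a1 (0.99), Iyd (0.99) and Alb (0.98), the last being albumin, a marker of hepatocytes.

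Other genes of the pathway were followed from lists. Of 27 further glucocorticoid receptor targets tested in HFD against NCD, 3 were higher, 2 lower and 22 did not pass; the list's median log2 fold change was 0.09, that of all genes -0.02. Mfsd2a, a lysophospholipid transporter of the fasted liver, rose from 5.08 ± 1.80 to 59.4 ± 11.7 CPM (log2 fold change 3.58, edgeR adjusted p = 0.00221). Lcn2, an iron-siderophore carrier of the acute phase, rose by 3.75 (adjusted p = 0.0106) and Cdkn1a, the cell-cycle inhibitor p21, by 1.62 (adjusted p = 0.0212). Irs2, an insulin receptor substrate, fell by 2.35 (adjusted p = 0.00880), and Pdk4, which restrains pyruvate oxidation, fell by 1.86 on the log2 scale (adjusted p = 0.0100). As background, these genes are also regulated by insulin, fasting or inflammation.

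Genes that shape the hormone signal were read, like the other lists here, against the 6.14% of all genes called for the diet; no list is called apart from it. Among 19 chaperones and coregulators of the receptor 1 rose, Smarca4 of the chromatin remodelling complex (log2 fold change 1.23, edgeR adjusted p = 0.0476), and 1 fell, the cyclophilin Ppid (-1.24, adjusted p = 0.0418). Of 10 genes of corticosteroid binding, activation and clearance 1 rose: Serpina6, which encodes the hormone's carrier in plasma. It was at 81.3, 117 and 121 CPM in NCD and at 218, 174 and 199.6 CPM in HFD (0.91, adjusted p = 0.0457). Hsd11b2, which inactivates the hormone in kidney, had 0 reads in every library.

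Of 25 tested genes for zinc and metal handling 1 was called. Slc30a1, the zinc exporter at the plasma membrane and, like the metallothioneins, a target of MTF1, was at 43.2, 24.9 and 25.9 CPM in NCD and at 12.1, 10.9 and 14.0 CPM in HFD. It fell by 1.33 (SE 0.25, edgeR adjusted p = 0.0305), the opposite direction to Mt1. Of 12 clock genes 1 was called, Dbp, an output of the circadian clock. It passed the filter on low counts through its HFD libraries alone and had to differ, so that this count supports nothing. Dbp had 1, 0 and 2 reads in the NCD libraries and 3.56, 1.28 and 2.61 CPM in HFD, at least 7.36-fold higher against a floor of 3 counts per NCD library. Of 15 acute-phase genes 2 rose, Lcn2 and Saa2 (log2 fold change 1.41, adjusted p = 0.0463), and 0 fell, with a list median of 0.65.

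**Figure D5:**
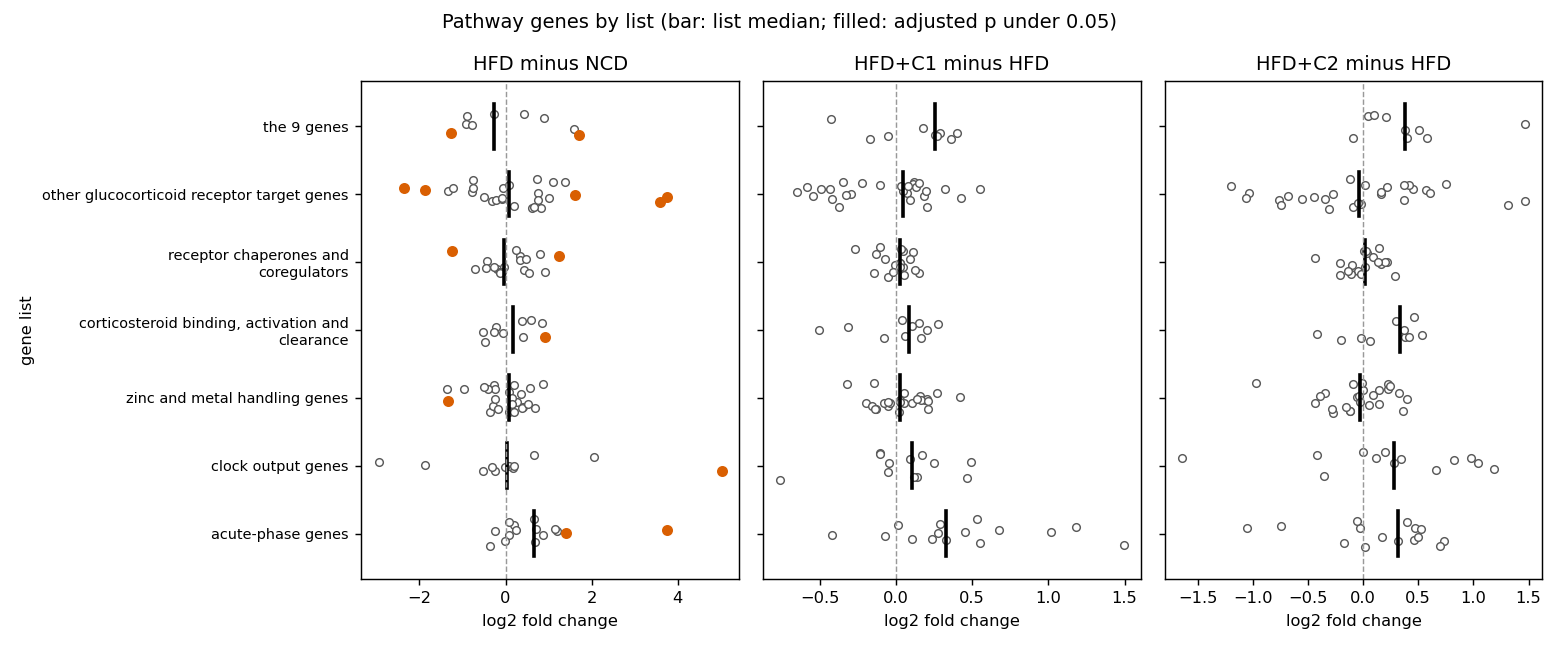
Log2 fold changes (x axis, scaled separately in each panel) of the 9 genes and of 6 lists of related genes (y axis) in 3 comparisons; each circle is a gene, the bar is the list's median, and filled circles have an adjusted p under 0.05. Filled circles appear in HFD minus NCD alone, and the lists scatter on both sides of 0.

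In the compound comparisons 0 genes of these 6 lists were called; genes with the smallest p of each list in edgeR are given for each compound against HFD. With C1 the target genes at the top were Cdkn1a (log2 fold change -0.59, adjusted p = 0.402) and Cebpb (-0.54, adjusted p = 0.439). With C2 they were Cebpb, a transcription factor of gluconeogenesis and the acute phase (-1.07), and Cdkn1a (-1.04), both with an adjusted p = 0.625 from edgeR. These comparisons share the HFD libraries. Among chaperones and coregulators they were Nrip1 with C1 (-0.27, edgeR adjusted p = 0.781) and Smarca4 with C2 (-0.44, adjusted p = 0.695). In steroid handling they were Srd5a1, a steroid reductase, with C1 (-0.51, edgeR adjusted p = 0.206) and Nr3c2, the mineralocorticoid receptor, with C2 (0.53, adjusted p = 0.695). Among metal genes they were the zinc importers Slc39a4 with C1 (0.42, edgeR adjusted p = 0.625) and Slc39a5 with C2 (-0.97, adjusted p = 0.695). Among clock genes Npas2 was first with both C1 (-0.76, edgeR adjusted p = 0.466) and C2 (-1.64, adjusted p = 0.419). Among acute-phase genes they were Itih4 with C1 (0.53, edgeR adjusted p = 0.303) and Apcs, serum amyloid P, with C2 (0.73, adjusted p = 0.695), and the list's median log2 fold change was 0.33 with C1 and 0.31 with C2, beside 0.01 and 0.02 over all genes. In HFD+C2 against HFD+C1, where only the target list is described, Lcn2 (-1.29) and Igfbp1 (0.72) led the targets, each with an edgeR adjusted p = 0.841.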

How the data were processed

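Liver RNA of 12 mice was sequenced in 4 groups of 3. The authors deposited 3 tables of read counts per gene symbol. The tables are named as normalized, but their values are whole numbers whose totals differ between libraries, and the HFD values recur unaltered in each table (0 cells differ). Per the submitters' processing notes, Trimmomatic 0.39, STAR 2.7, DESeq2 and the build mm10 were used, with roles and order not stated. The annotation, the counting step and strand use are not given in the sources used here. Per the labels' protocols, libraries came from total RNA with an Advanta kit.

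From the deposited counts, 4 rows that name no gene (27.3% to 58.2% of a library's reads) were left out of library sizes. Each comparison used its own 6 libraries and the genes averaging 10 counts or more in them, with the edgeR 4.0.16 quasi-likelihood test under R 4.3.3, TMM scaling and Benjamini-Hochberg adjustment over all genes tested. Genes were called at an adjusted p under 0.05. The script was tested on simulated data. CPM values use TMM over all 12 libraries. Correlations and the Mt2 to Mt1 ratio (Python 3.11.15, scipy 1.17.1) used permutation tests on log2(CPM + 1) and log2 ratios. Intervals are 95% and cover the spread between these mice or, for shares of reads, counting error only. The same replicate numbers occur in each group, and nothing in the labels pairs them. Alternatives were DESeq2 1.42.0, limma-voom 3.58.1, other scalings and filters, a replicate block, a joint fit and the omission of each library. Every member is named; from each list the called genes are named or, where none was called, up to 2 with the smallest unadjusted p; and for each member the 3 genes nearest in pattern. The members and lists were chosen with earlier results of these data known.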

Additional observations from a re-analysis of the deposited data

How the results depend on the processing

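Precision is limited by 3 mice per group, by the low depth of NCD replicate 2, by the reads outside genes in NCD replicate 1 and HFD+C2 replicate 1, and by counts as low as 3 for Mt2. The diet log2 fold changes of the 9 genes kept their sign under every alternative run that tested them; Mt2 was not tested at a mean of at least 50 counts. The number of genes called for HFD against NCD was 2298 with DESeq2, 4493 without a filter, 524 at a mean of at least 50 counts, 2404 in the fit of all 12 libraries and from 23 (without HFD replicate 1) to 1838 (without NCD replicate 1) on leaving out a library, against 851. Members called there were 4 with DESeq2 (Mt1, Zbtb16, Tsc22d3 and Tat), 4 without a filter, 1 at a mean of at least 50 counts, 1 with limma-voom, 1 in the joint fit (Sgk1, adjusted p = 0.0389) and 0 to 5 on leaving out a library, against 2. Without TMM the median of all genes shifted by -0.22 and the share of calls that were higher in HFD went from 43.2% to 22.2%; Tsc22d3, Tat and Zbtb16 were then called and Mt1 had an adjusted p of 0.0506. Under limma-voom that share was 56.3%, at a mean of at least 50 counts 54.6%, and from 34.7% to 68.0% on leaving out a library.

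For HFD+C1 against HFD, the genes called were 77 with DESeq2, 206 without a filter, 0 in the joint fit and 2 to 102 on leaving out a library, against 7, with 0 members throughout. For HFD+C2 against HFD they were 35, 152, 0, 1 with limma-voom and 0 to 27, against 3. For HFD+C2 against HFD+C1 they were 3 with DESeq2, 162 without a filter and 0 to 1, against 0. In each C2 comparison 1 member, Zbtb16, was called without a filter, and from 0 to 1 on leaving out a library. The cause of these differences between settings was not tested.

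Same-numbered libraries had deviations from group means that correlated between -0.17 and 0.23. Deviations from a mean of 3 libraries are not free of one another, so these values cannot decide whether the numbers mark a pairing. With a replicate block the genes called were 449 for HFD against NCD (1 member, Mt1, with Zbtb16 at an adjusted p of 0.0520) and 36 for HFD+C1 against HFD. With the block, Mt1 reversed to -0.36 in HFD+C2 against HFD and -0.37 against HFD+C1. Under limma-voom these were -0.19 and -0.40, and Fkbp5 in HFD+C2 against HFD was -0.00098.

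On leaving out a library, some compound log2 fold changes changed sign. For HFD+C1 against HFD, Mt1 ran from -0.40 to 0.63, Mt2 from -0.61 to 0.71, Nr3c1 from -0.17 to 0.088 and Tsc22d3 from -0.0065 to 0.40. For HFD+C2 against HFD, Mt1 ran from -1.33 to 1.08, Mt2 from -1.19 to 0.33, Fkbp5 from -0.20 to 0.31, Tsc22d3 from -0.23 to 0.53, Tat from -0.068 to 0.63 and Nr3c1 from -0.010 to 0.24. For HFD+C2 against HFD+C1, Mt1 ran from -1.61 to 0.99, Mt2 from -1.54 to 0.52, Fkbp5 from -0.021 to 0.48, Tsc22d3 from -0.49 to 0.26, Tat from -0.31 to 0.38 and Sgk1 from -0.027 to 0.30. The difference in mean log2 Mt2 to Mt1 ratio ran from -0.48 to 0.33 for HFD against NCD, -0.21 to 0.12 for HFD+C1 and -0.44 to 0.13 for HFD+C2 against HFD, and -0.38 to 0.19 for HFD+C2 against HFD+C1. Of 36 correlations, 6 passed with or without TMM, 2 without the farthest 2 libraries, 2 without NCD replicate 1 and HFD+C2 replicate 1, and 0 as deviations from group means.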
